A study of Mus musculus with 20 samples.

Results

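The blood-brain barrier genes described here are 10 genes of brain endothelial cells in the mouse cerebellum: Cldn5, Flt1, Kdr, Pecam1, Cdh5, Tek, Slco1a4, Slc2a1, Abcb1a and Mfsd2a. They were taken by symbol from the 29200 Ensembl gene IDs of a count table, and all 10 were found and passed the limit on low counts, among 12153 genes tested. RNA came from the whole cerebellum of male C57BL6/N mice that carried either WT/WT or 304Q/304Q alleles of Atxn3, the gene of spinocerebellar ataxia type 3, at 2 and at 12 months of age, with 5 mice in each of the 4 groups and 1 library per mouse. The 304Q/304Q mice carry an expanded, interrupted CAACAG repeat in both of their endogenous Atxn3 alleles, in every cell type, and descend from 1 founder line. The WT/WT mice are littermates without the repeat. The labels name the wild-type alleles as those of ataxin-2, whereas the study describes Atxn3, and the study's description was used.

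Brain endothelial cells line the capillaries and are joined by tight junctions that close the space between them, so that nutrients and waste pass through carriers in the cell membrane. Pecam1 (an adhesion molecule) and Cdh5 (the cadherin of endothelial adherens junctions) mark these cells in all vessels, Cldn5 encodes the main claudin of their tight junctions, and Flt1 and Kdr are receptors for vascular endothelial growth factor, of which Kdr carries most of the signal and Flt1 can act as a decoy. Tek encodes Tie2, the receptor of the angiopoietins. Among the carriers, Slc2a1 (GLUT1) takes up glucose, Mfsd2a takes up lysophosphatidylcholine that carries omega-3 fatty acids and also restrains vesicle transport across the cell, Slco1a4 moves organic anions, and Abcb1a (P-glycoprotein) pumps drugs and lipophilic compounds back to the blood. Slc2a1 is known to be made in glia as well, so its RNA in whole tissue is not endothelial alone.

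The genes lie apart in the genome. In GRCm38, Cldn5 (ENSMUSG00000041378) spans chr16:18776847-18778262 on the plus strand, Cdh5 (ENSMUSG00000031871) chr8:104101625-104144511 (plus), Tek (ENSMUSG00000006386) chr4:94739289-94874976 (plus), Pecam1 (ENSMUSG00000020717) chr11:106654217-106750628 (minus), Flt1 (ENSMUSG00000029648) chr5:147561604-147726011 (minus) and Kdr (ENSMUSG00000062960) chr5:75932827-75978458 (minus). Of the carriers, Slc2a1 (ENSMUSG00000028645) spans chr4:119108711-119137983 (plus), Mfsd2a (ENSMUSG00000028655) chr4:122946850-122961188 (minus), Slco1a4 (ENSMUSG00000030237) chr6:141805440-141856199 (minus) and Abcb1a (ENSMUSG00000040584) chr5:8660077-8748575 (plus). Exons of Slc2a1 overlap those of Gm12868 on the other strand and exons of Abcb1a those of Gm42686. The study used a stranded kit but its text does not state whether counting used the strand, so reads of these overlaps are uncertain. Slco1a4 and Abcb1a also have near copies, but the copies gave few counts. Abcb1b lay between 4.01 and 29.9 normalized counts, and Slco1a5 and Slco1a6 were lower on average.

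The promoters of 8 of the 10 genes were found in a RefSeq table of GRCm38.p6. The 250 bases before the start of the carriers that passed a test at 12 months, Mfsd2a and Slc2a1, are shown with those of Cldn5, which did not. Capitals mark ACGTG on either strand, the core of the element bound by hypoxia-inducible factor. The windows lie at chr4:122961189-122961438 (minus strand), chr4:119108495-119108744 (plus) and chr16:18776597-18776846 (plus). Starts are those of the RefSeq table. The windows of Mfsd2a and Cldn5 end at the gene spans given above, but that of Slc2a1 reaches into its span, whose first base lies inside its ACGTG.

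Mfsd2a: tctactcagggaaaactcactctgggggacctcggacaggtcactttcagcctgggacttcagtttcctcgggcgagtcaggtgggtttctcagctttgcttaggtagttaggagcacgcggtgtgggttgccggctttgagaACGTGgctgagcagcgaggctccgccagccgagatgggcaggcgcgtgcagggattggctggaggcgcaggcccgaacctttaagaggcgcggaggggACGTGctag

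Slc2a1: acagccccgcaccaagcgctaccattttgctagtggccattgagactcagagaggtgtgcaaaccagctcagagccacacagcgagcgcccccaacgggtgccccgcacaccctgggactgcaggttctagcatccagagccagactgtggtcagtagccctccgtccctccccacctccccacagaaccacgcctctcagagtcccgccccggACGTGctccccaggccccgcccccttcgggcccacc

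Cldn5: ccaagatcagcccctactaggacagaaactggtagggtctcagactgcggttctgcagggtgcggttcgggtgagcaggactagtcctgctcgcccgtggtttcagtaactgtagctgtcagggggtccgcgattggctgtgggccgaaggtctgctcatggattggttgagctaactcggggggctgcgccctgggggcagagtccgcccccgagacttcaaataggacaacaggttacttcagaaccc

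ACGTG was found in 2 places in the Mfsd2a window and in 1 place in the Slc2a1 window, and in no place in those of Flt1, Kdr, Tek, Cldn5, Slco1a4 and Abcb1a. It is common, since 16.6% of the 32851 promoters in the table hold it. CCGGAAG, a core of ETS sites, was in none of the 8 windows and in 6.91% of all promoters. CTTTGA, a core of TCF/LEF sites, was found 2 times for Abcb1a and 1 time for Mfsd2a (13.8% of all), GGGCGG (a GC box) 3 times for Flt1, 2 times each for Kdr and Slc2a1 and 1 time for Cldn5 (32.7%), TATAAA 1 time for Flt1 (12.4%) and AGAACA, a glucocorticoid half-site, 1 time for Tek (16.1%). These are matches of letters on both strands, and binding was not measured.

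Between 11385380 and 27636687 reads per mouse were counted on genes (median 13522932). In the text below, a normalized count is a count scaled to the mean library size by edgeR's TMM method, and log2 fold changes, their standard errors (SE) and p-values come from the quasi-likelihood test of edgeR, with p-values adjusted over all 12153 genes by the Benjamini-Hochberg method. A DEG is a gene with an adjusted p of 0.05 or less whose log2 fold change is 0.5 or more in either direction. The study called Igfbp5 at both ages from these same libraries. Here it was lower in every 304Q/304Q mouse than in any WT/WT mouse of its age (log2 fold change −0.75 at 2 and −1.42 at 12 months). This repeats the study's result and is no independent check of the labels. Atxn3 itself did not pass in edgeR (−0.54, adjusted p = 0.0916, and −0.13, adjusted p = 0.51). In whole tissue, fewer endothelial cells and less RNA per cell cannot be told apart. The labels do not say that replicates differ in anything but the mouse, and no batch is given.

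Some libraries held RNA of neighbouring tissue. Ttr, a choroid plexus gene, exceeded 100 CPM (counts scaled to a fixed library total) in 6 libraries: 1 of the 304Q/304Q mice of 2 months, 3 WT/WT and 2 304Q/304Q mice of 12 months. All 10 choroid plexus markers were detected in every group, with summed normalized counts from 2266 to 2501 in the WT/WT mice and from 2041 to 35637 in the 304Q/304Q mice at 2 months, and from 2328 to 41881 in the WT/WT mice and from 1821 to 30222 in the 304Q/304Q mice at 12 months. In the WT/WT mice of 2 months, Ttr had only 14.9 to 98.7 normalized counts. Most of their sum thus came from other listed genes, and a sum of this size does not show choroid plexus RNA. The 304Q/304Q replicate 5 of 12 months held skeletal muscle RNA, with a summed level of the muscle markers of 4333 against at most 239.6 in any other library. All 9 blood markers were detected in every group. Their summed level ran from 1367 to 3248 (WT/WT) and from 1683 to 3110 (304Q/304Q) at 2 months and from 1666 to 3543 (WT/WT) and from 1376 to 1608 (304Q/304Q) at 12 months, so that the 304Q/304Q mice of 12 months lay below all WT/WT mice of that age. Perfusion is not stated for the mice used for RNA. The WT/WT mice of 2 months also separated over all genes: the chi-square per degree of freedom between libraries was 4.43 to 6.19 among replicates 1 to 3 and 4.61 between 4 and 5, but 12.8 to 21.5 between these sets. At 12 months, WT/WT replicate 1 stood at 17.6 to 23.9 from the rest of its group, whose other pairs lay between 6.13 and 11.3. The labels give no batch for this split.

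Per length of transcript, Slc2a1 was the most abundant of the 10 genes over all 20 mice, with 34.0 ± 5.36 RPKM (SD, n = 20), followed by Cldn5 with 16.6 ± 3.47. Abcb1a came next with 7.10 ± 0.61, above Slco1a4 with 6.10 ± 0.62 RPKM. From Slco1a4 through Flt1 (5.65 ± 0.52), Cdh5 (5.27 ± 0.52) and Mfsd2a (4.67 ± 1.18) to Pecam1 (4.20 ± 0.45 RPKM), neighbours in this order differed by less than the larger of their SDs. Tek (3.05 ± 0.44) and Kdr (1.67 ± 0.36 RPKM) lay below, each separated from its neighbour by more than the SD. Both the tight junction gene and the glucose carrier thus stood well above the receptors. Mfsd2a had the widest relative spread: its level was 5.54 ± 0.45 RPKM in WT/WT mice of 2 months, between Flt1 (6.13) and Cdh5 (4.98), and 3.04 ± 0.46 in 304Q/304Q mice of 12 months, between Pecam1 (4.01) and Tek (2.69).

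**Figure D1:**
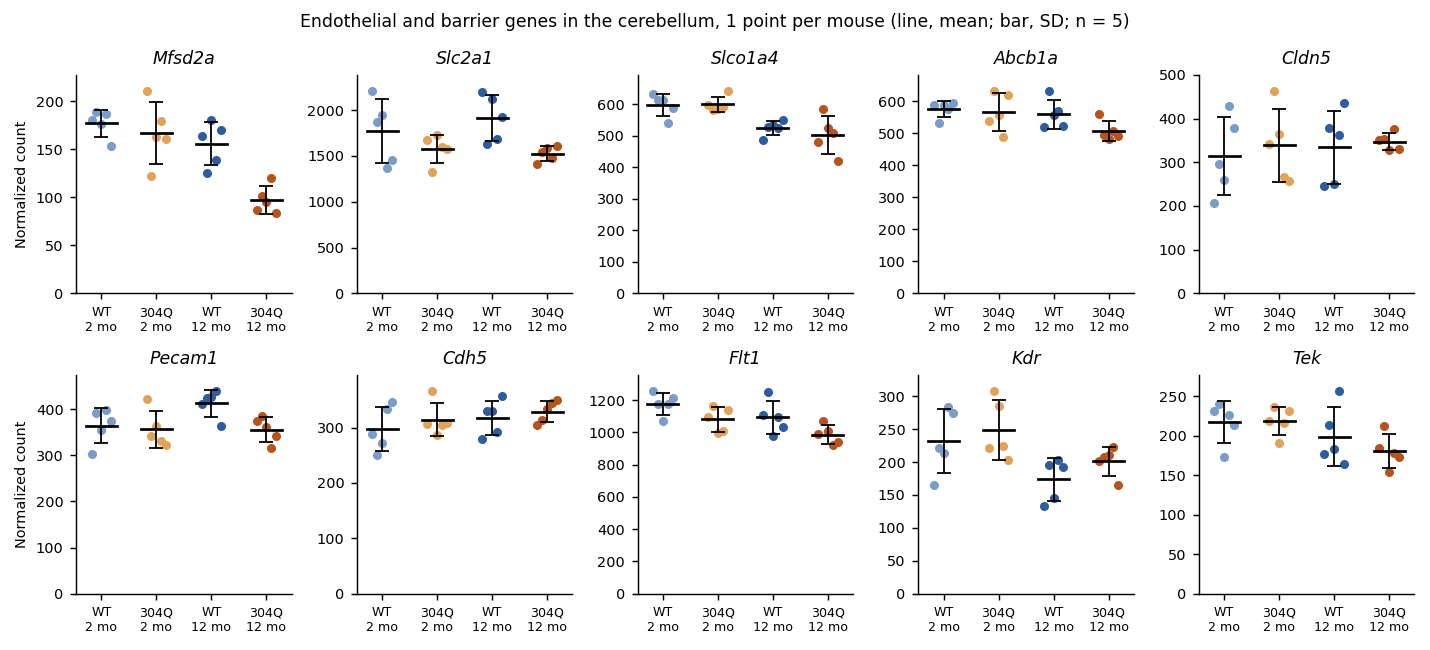
Normalized counts of the 10 genes in each mouse, by genotype and age (1 point per mouse, line for the mean, bar for the SD, n = 5 per group, vertical axes from 0). For Mfsd2a, the 5 304Q/304Q mice of 12 months, between 83.3 and 119.9, lie below every other mouse.

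At 12 months, Mfsd2a and Slc2a1, 2 of the 4 carriers, were lower in 304Q/304Q mice by the adjusted p, and the call of Slc2a1 was not kept throughout. None of the other genes was called. A difference between carriers and endothelial markers was not tested. Mfsd2a fell by 0.68 on the log2 scale and Slc2a1 by 0.33. Of the 10 genes, 1 was a DEG, where 3.09% of all genes tested were, and 2 passed the adjusted p alone, where 12.5% of all genes did, all of them lower. The 5 mice of each genotype did not overlap for these same genes, and in 5.43% of all genes tested the 304Q/304Q mice all lay below the WT/WT mice. Among only 10 genes, such counts do not set them apart from the shares of all genes. The median log2 fold change of the 10 genes was −0.14, beside −0.0039 for all genes tested.

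Mfsd2a had 163.7, 125.9, 180.7, 139.4 and 169.9 normalized counts in the WT/WT mice of 12 months and 86.5, 101.9, 95.02, 119.9 and 83.3 in the 304Q/304Q mice (replicates 1 to 5). The highest 304Q/304Q mouse lay just below the lowest WT/WT mouse. The level was 0.625 times that of WT/WT mice (log2 fold change −0.68, SE 0.144, 95% confidence interval −0.98 to −0.38, adjusted p = 0.00244 by edgeR). This call held in each of 9 other fits and with each of the 20 libraries left out in turn (log2 fold change −0.62 to −0.77 with a library left out). Without the 6 libraries with choroid plexus RNA, which leaves 2 WT/WT and 3 304Q/304Q mice of this age, the log2 fold change was −0.66 and the adjusted p 0.0855 by edgeR.

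Slc2a1 had 2201, 1625, 2121, 1686 and 1929 normalized counts in the WT/WT mice and 1406, 1543, 1583, 1472 and 1609 in the 304Q/304Q mice. The gap between the groups was narrow, since the highest 304Q/304Q mouse, replicate 5, reached 1609 and the lowest WT/WT mouse, replicate 2, 1625. The log2 fold change was −0.33 (SE 0.107, 95% confidence interval −0.55 to −0.11, adjusted p = 0.0437 by edgeR), short of the threshold on the fold change. The adjusted p rose above 0.05 with 10 of the 20 libraries left out in turn, to at most 0.121 without WT/WT replicate 3 of 12 months, and with GC content and length trends removed (log2 fold change −0.27, adjusted p = 0.119 by edgeR). Without the 6 libraries with choroid plexus RNA it was −0.31, with an adjusted p of 0.255 by edgeR.

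Neither Slco1a4 nor Abcb1a, the other carriers, passed the test at 12 months. Slco1a4 lay between 487.8 and 550.7 normalized counts in the WT/WT mice and between 419.6 and 583.7 in the 304Q/304Q mice (log2 fold change −0.06, 95% confidence interval −0.22 to 0.09). For Abcb1a the ranges were 519.0 to 631.3 and 483.9 to 559.9 (log2 fold change −0.14, −0.30 to 0.01). The groups overlapped for both genes.

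Of the genes that mark endothelial cells, Pecam1 had the lowest value. Its WT/WT mice had 411.0, 423.2, 425.5, 439.3 and 363.1 normalized counts and its 304Q/304Q mice 373.6, 384.4, 361.3, 315.1 and 342.3, with overlap through WT/WT replicate 5. The log2 fold change of −0.22 (SE 0.0899, 95% confidence interval −0.40 to −0.03) did not pass after adjustment (adjusted p = 0.121 by edgeR). Cdh5, with 279.5 to 356.4 normalized counts in the WT/WT mice and 304.7 to 349.3 in the 304Q/304Q mice, differed by 0.05 (95% confidence interval −0.15 to 0.25). Cldn5 ranged from 245.0 to 435.2 in WT/WT and only from 327.6 to 375.0 in 304Q/304Q mice (log2 fold change 0.05, −0.32 to 0.43).

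The receptors showed no call either. Flt1 ranged from 976.0 to 1249 normalized counts in the WT/WT mice and from 922.3 to 1068 in the 304Q/304Q mice, with a log2 fold change of −0.15 (95% confidence interval −0.29 to −0.01, adjusted p = 0.156 by edgeR). Kdr ranged from 132.5 to 203.6 and from 164.6 to 222.4 (log2 fold change 0.21, −0.11 to 0.52), and Tek from 164.3 to 256.8 and from 153.8 to 212.7 (−0.14, −0.40 to 0.11). Thus 3 of the 10 genes had a positive and 7 a negative log2 fold change at this age.

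**Figure D2:**
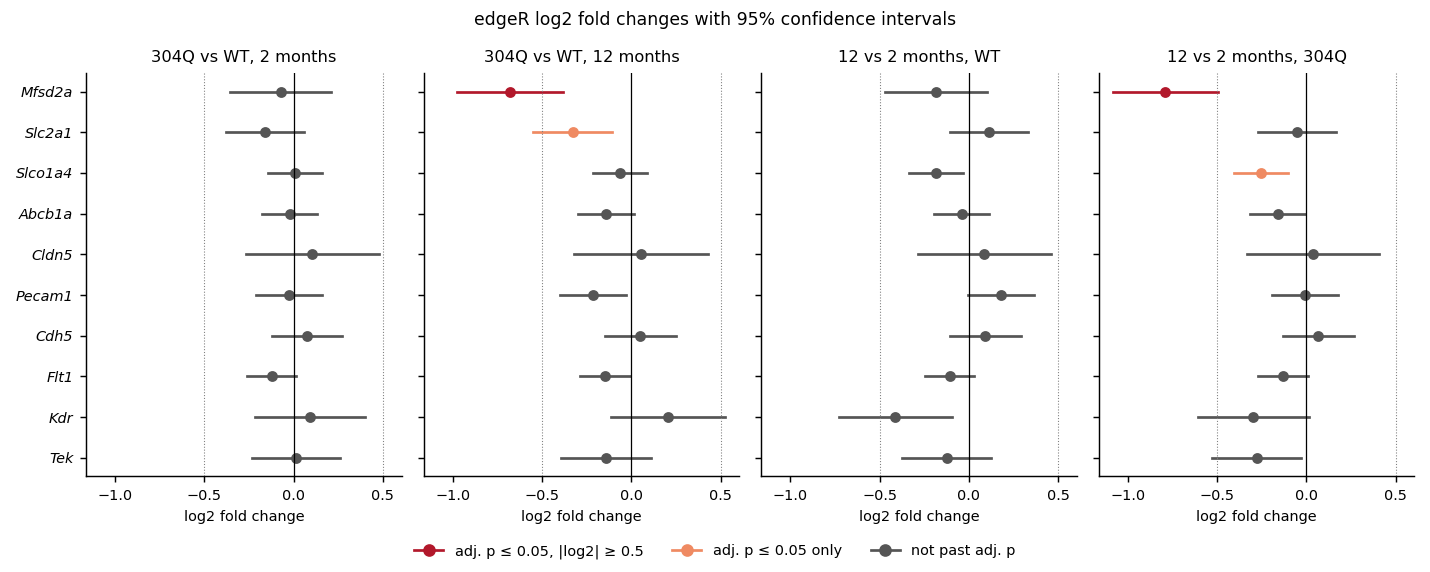
Log2 fold changes of the 10 genes with 95% confidence intervals for the genotype at each age and for age in each genotype (edgeR, 5 mice per group, dotted lines at −0.5 and 0.5). Mfsd2a in 304Q/304Q mice of 12 months has log2 fold changes of −0.68 against WT/WT mice and of −0.79 against 304Q/304Q mice of 2 months, and the other intervals lie nearer to 0.

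Relative to the endothelial markers of the same mouse, Mfsd2a was on average lowest in the 304Q/304Q mice of 12 months. The ratio uses the same Mfsd2a counts as the test above and is no separate evidence. The log2 ratio of Mfsd2a to the geometric mean of Pecam1, Cdh5, Flt1, Kdr and Tek was −1.03 ± 0.20 in the WT/WT mice and −1.15 ± 0.35 in the 304Q/304Q mice of 2 months, −1.15 ± 0.32 in WT/WT mice of 12 months and −1.79 ± 0.20 in 304Q/304Q mice of 12 months (SD, n = 5). At 12 months the highest ratio of the 304Q/304Q mice was −1.46 and the lowest of the WT/WT mice −1.57, so the ranges overlapped. For Slc2a1 the ratios at 12 months were 2.47 ± 0.31 and 2.19 ± 0.11, with overlap. A ratio shows unequal levels of RNA within a mouse and not which of them changed.

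At 2 months, none of the 10 genes was called, by the DEG rule (0.00823% of all genes, which is Igfbp5 alone) or by the adjusted p alone (0.0494% of all genes). None of the 10 had an unadjusted p under 0.05 either, and 674 of the 12153 genes tested did by edgeR. That share is itself near 0.05, so the absence among 10 genes does not set them apart. DESeq2 with and without surrogate variables also called none of the 10. Mfsd2a had 180.6, 188.5, 176.7, 187.0 and 153.1 normalized counts in the WT/WT mice and 211.1, 122.3, 162.4, 179.7 and 160.4 in the 304Q/304Q mice, with the highest and the lowest of the 10 values both in 304Q/304Q mice (log2 fold change −0.07, 95% confidence interval −0.35 to 0.21). Slc2a1 had 2210, 1869, 1947, 1371 and 1457 normalized counts in the WT/WT mice and 1670, 1328, 1726, 1595 and 1580 in the 304Q/304Q mice (−0.16, −0.38 to 0.06). For this gene the WT/WT mice reached higher than the 304Q/304Q mice and the lowest value was that of a 304Q/304Q mouse. The other 8 log2 fold changes lay between −0.12 (Flt1) and 0.10 (Cldn5), and 5 of the 10 were positive and 5 negative.

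Between 2 and 12 months, none of the 10 genes was called in WT/WT mice, by the DEG rule (2.58% of all genes) or by the adjusted p alone (11.5%). Nominally, Kdr was lower at 12 months, with 164.6, 222.1, 213.5, 283.7 and 274.5 normalized counts at 2 months and 132.5, 196.2, 145.4, 203.6 and 193.2 at 12 months (log2 fold change −0.41, SE 0.153, unadjusted p = 0.0127, adjusted p = 0.0792 by edgeR). It was called with surrogate variables in edgeR (log2 fold change −0.61, adjusted p = 0.00392) or DESeq2 (−0.61, adjusted p = 0.000391), and without WT/WT replicate 1 of 2 months (−0.51, adjusted p = 0.0395 by edgeR). The log2 fold change was −0.18 for Slco1a4 (adjusted p = 0.103 by edgeR). For Mfsd2a it was −0.19 (95% confidence interval −0.47 to 0.10) and for Slc2a1 0.11 (−0.11 to 0.33). Slc2a1 passed the adjusted p in 1 of 9 other fits, over which its log2 fold change ran from 0.03 to 0.25.

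In 304Q/304Q mice, Mfsd2a fell between 2 and 12 months to 0.578 times its level, with no overlap between 122.3 normalized counts, the lowest mouse of 2 months, and 119.9, the highest of 12 months (log2 fold change −0.79, SE 0.142, 95% confidence interval −1.08 to −0.50, adjusted p = 0.000611 by edgeR). It was the only DEG among the 10 genes, where 2.28% of all genes were DEGs and in 4.2% all 5 mice of 12 months lay below those of 2 months. The call held in the 9 other fits, with each library left out and without the libraries with choroid plexus RNA (−0.74, adjusted p = 0.0296 by edgeR). Slco1a4 passed the adjusted p alone, as 7.26% of all genes did. It had 596.3, 580.5, 585.1, 591.9 and 642.6 normalized counts at 2 and 478.6, 583.7, 523.9, 508.0 and 419.6 at 12 months (log2 fold change −0.25, SE 0.0733, adjusted p = 0.0322 by edgeR). The groups overlapped through replicate 2 of 12 months, and the adjusted p rose to at most 0.0868 with any of 6 libraries left out, the highest without replicate 5 of 12 months. The call was also lost with no filter on low counts (adjusted p = 0.0746), with only the groups compared (0.0611) and without the libraries with choroid plexus RNA (adjusted p = 0.183 by edgeR). Tek (−0.28, unadjusted p = 0.0303, adjusted p = 0.195), Kdr (−0.30) and Abcb1a (−0.16, unadjusted p = 0.041, adjusted p = 0.231 by edgeR) did not pass after adjustment. Once surrogate variables were fitted, the log2 fold change of Kdr was −0.44 and passed both in edgeR (adjusted p = 0.0247) and in DESeq2 (adjusted p = 0.0117), short of the fold threshold, so that 3 of the 10 genes passed the adjusted p alone there. The comparisons at 12 months and of age in 304Q/304Q mice share the 5 304Q/304Q mice of 12 months.

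Whether the genotype acted differently at the ages was tested by the interaction, the log2 fold change at 12 months less that at 2 months. None of the 10 genes passed, by the DEG rule (0.938% of all genes) or by the adjusted p alone (1.95%). For Mfsd2a the interaction was −0.60 (SE 0.198, 95% confidence interval −1.01 to −0.20), which missed the threshold after adjustment in edgeR (adjusted p = 0.123, unadjusted p = 0.00544). Over the other fits the adjusted value ran from 0.0807 to 0.276. For Slc2a1 it was −0.17 (−0.48 to 0.14). A difference between the ages was therefore not shown for either carrier.

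Within the groups, the 10 genes did not rise and fall together as a set from mouse to mouse. Pairs of other genes were not measured for comparison. After the group means were removed from log2 CPM (with a prior count of 2), the 45 pairs of genes had a median Pearson's r of 0.11 over the 20 mice, and 25 pairs were positive. Kdr and Cldn5 were the closest pair (r = 0.91, Spearman's rho = 0.91, permutation test within groups, two-sided, adjusted p = 0.0009 for r and 0.0018 for rho over the 45 pairs, unadjusted p = 2e-05 and 4e-05). With the 2 mice farthest from the median of Kdr left out, r was 0.87. It was 0.95 among the mice of 2 months and 0.85 among those of 12 months, and 0.78 once GC content and length trends were removed.

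Slc2a1 went the other way. It correlated negatively with Kdr (r = −0.80, rho = −0.74, permutation adjusted p = 0.0149 for r and 0.0563 for rho, unadjusted p = 0.00066 and 0.0025) and with Cldn5 (r = −0.79, rho = −0.73, permutation adjusted p = 0.0278 and 0.0593, unadjusted p = 0.00185 and 0.00527), so that both pairs passed by r and not by rho. The values of r were −0.71 and −0.68 without the 2 outermost mice, and −0.81 and −0.70 with the GC and length trends removed. The WT/WT replicate 1 of 2 months, for example, had the lowest Cldn5 of all mice (206.9 normalized counts) and the highest Slc2a1 (2210), and the WT/WT replicate 4 of 2 months had 428.2 and 1371. These mice lie on either side of the split over all genes given above, whereas the permutation treats the mice of a group as exchangeable. Without the WT/WT mice of 2 months (15 mice left), r was 0.86 for Kdr and Cldn5, −0.68 for Kdr and Slc2a1 and −0.63 for Cldn5 and Slc2a1, and with WT/WT replicate 1 of 12 months left out as well it was 0.83, −0.59 and −0.54 (rho 0.84, −0.50 and −0.31). Abcb1a and Mfsd2a (r = −0.63, adjusted p = 0.167) and Flt1 and Tek (r = 0.58, adjusted p = 0.167, both by the permutation test) did not pass after adjustment. No other pair passed.

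**Figure D3:**
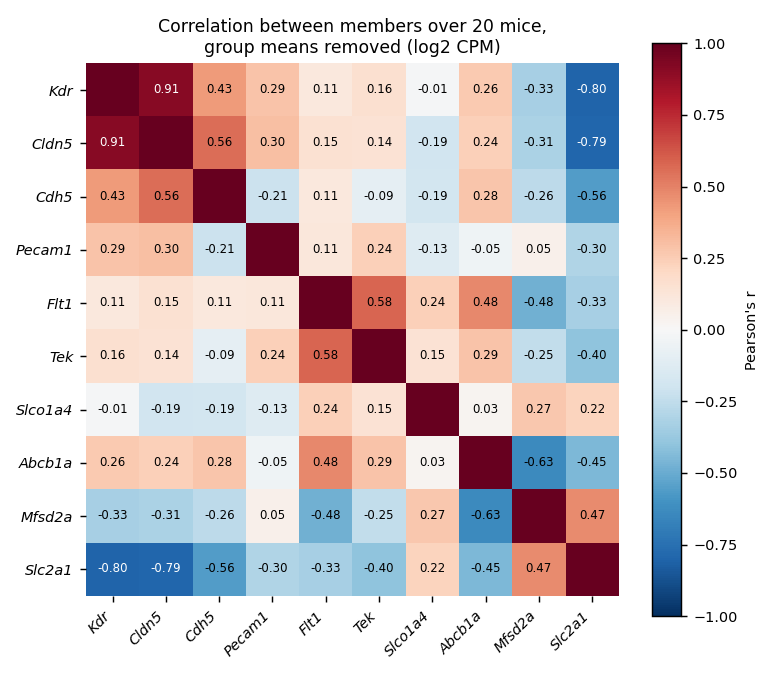
Pearson's r between each pair of the 10 genes over 20 mice, on log2 CPM with group means removed (colour scale from −1 to 1). Kdr and Cldn5 form the closest pair (0.91), and Slc2a1 has its lowest values with them (−0.80 and −0.79).

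**Figure D4:**
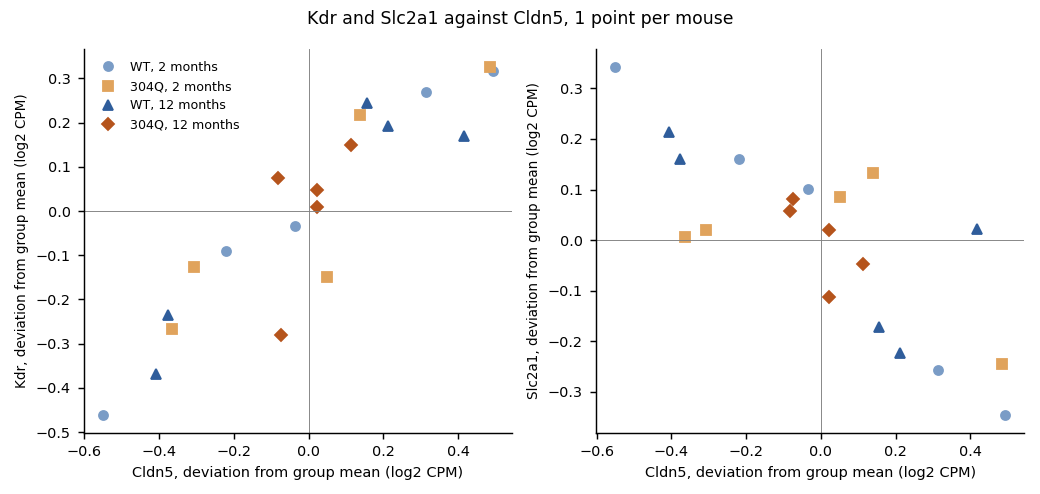
Deviation of Kdr (left) and Slc2a1 (right) from the group mean against that of Cldn5, in log2 CPM, 1 point per mouse, with symbols for the 4 groups. Kdr rises with Cldn5 (r = 0.91) and Slc2a1 falls (r = −0.79), and the 304Q/304Q mice of 12 months span a narrow range of Cldn5.

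The genes whose deviations from the group mean were most like the mean of the 10 genes, among 12143 others, were Pip4k2c (r = 0.86), Tnfrsf19 (0.80), Gpn3 (0.80), Nectin2 (0.79), Cpsf3 (0.79), Lgr6 (0.77), Srebf1 (0.77), Mgrn1 (0.77), Gm5124 (0.77) and Ndufb4 (0.76), over 20 mice that share library and depth with the 10 genes. The median r of all genes was 0.019. None of these is on a vascular list used here. The first listed genes were Sparcl1 at rank 11, the pericyte gene Anpep at rank 15 and the endothelial transcription factor Erg at rank 23. The list depended on the measure, and with Spearman's rho 5 of the 10 names were shared. Taken alone, Cldn5 was most like Kdr, Nagk (0.86), Lgr6 (0.85) and Emcn (0.85), an endothelial sialomucin. Slc2a1 was most like Eomes (0.92), Dusp3 (0.90), Tsc22d3 (0.90), Mcl1 (0.88) and Pank1 (0.87), and Mfsd2a like Dnaja2 (0.80), Sh3gl1 (0.79) and Yrdc (0.78). These are descriptions over 20 mice, without a test.

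The ligands of the receptors were measured in the same RNA. At 12 months, Angpt1, the ligand that activates Tie2 and is made mainly by cells around the endothelium, was a DEG and rose in 304Q/304Q mice. Its counts were 157.0, 124.9, 76.97, 156.5 and 95.5 in the WT/WT mice and 213.1, 180.5, 231.3, 214.8 and 153.6 in the 304Q/304Q mice, overlapping through 304Q/304Q replicate 5 (log2 fold change 0.70, SE 0.168, adjusted p = 0.00691 by edgeR). The call held in all fits and with each library left out, but not without the libraries with choroid plexus RNA (0.64, adjusted p = 0.138 by edgeR). Vegfa, the ligand of Flt1 and Kdr, had log2 fold changes of 0.03 at 2 and 0.05 at 12 months, Nrp1, a co-receptor, of −0.11 and 0.03, and Tie1, the partner of Tie2, of 0.12 and 0.18, none of which passed. Angpt2, the context-dependent antagonist, had too few counts to be tested (16.8 to 63.3 normalized counts in the mice of 12 months). Of 12 tested ligands and partners, Notch4, a receptor of endothelial cells, was the only other one past the test at 12 months (−0.53, adjusted p = 0.0419 by edgeR), and it lost the call in 5 of 9 other fits and with 5 libraries left out. Vegfb rose with age in WT/WT mice (0.36, adjusted p = 0.00406 by edgeR), but with the GC and length trends removed its log2 fold change was 0.10 (adjusted p = 0.206).

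Wnt ligands maintain the barrier genes through the receptor Fzd4 and its partners. At 12 months Wnt7a was lower in 304Q/304Q mice (log2 fold change −0.24, adjusted p = 0.0346 by edgeR), a call lost in 3 of 9 other fits and with 6 libraries left out in turn. Ndp, the ligand norrin (0.04), Fzd4 (−0.24, SE 0.181), Tspan12 (0.10) and Adgra2, the co-receptor GPR124 (−0.04), did not pass. Of 17 tested genes of the Wnt and barrier programme, 2 passed the adjusted p at 12 months, where 12.5% of all genes did. Both were lower (Wnt7a and Ppard, −0.29, lost in 2 of 9 other fits and with 3 libraries left out), and the median of the 17 was −0.0084. Apcdd1, a Wnt target and inhibitor in the barrier, fell with age in WT/WT mice (−0.51, adjusted p = 0.00909 by edgeR, lost in 1 of 9 other fits). None of the genes named in this paragraph passed at 2 months.

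Among 25 tested carriers and barrier proteins beside the 10 genes, 7 passed the adjusted p at 12 months, where 12.5% of all genes did. Of these 7, 6 were lower. Abcg2, an efflux pump that works beside P-glycoprotein, fell by 0.46 on the log2 scale (SE 0.11, adjusted p = 0.00632 by edgeR) with no overlap, and Atp10a, a lipid flippase, by 0.59 (adjusted p = 0.0211). Slco1c1, a carrier of thyroid hormone (−0.30), Lrp8 (−0.21), Slc6a6, the taurine carrier (−0.19), and Spns2, an exporter of sphingosine-1-phosphate (−0.23), were lower too, and Tfrc, the transferrin receptor, was higher (0.42, adjusted p = 0.0182 by edgeR). Of the 7 calls, that of Slco1c1 was lost in 4 of 9 other fits, that of Tfrc in 3, that of Spns2 in 2 and that of Slc6a6 in 1. With libraries left out in turn, Slco1c1 and Spns2 lost it with 6 each, Tfrc with 5, Slc6a6 with 4 and Atp10a with 2. With surrogate variables in edgeR the log2 fold change of Tfrc was 0.16 (adjusted p = 0.265) and that of Slco1c1 −0.19 (adjusted p = 0.242). Without the libraries with choroid plexus RNA none of the 7 passed. The median of the list was 0.0092. Several of these are also made by glia or neurons. With age, Tfrc fell by 1.05 in WT/WT mice. In 304Q/304Q mice Tfrc (−0.63), Abcg2 (−0.46), Lrp8 (−0.35) and Atp10a (−0.61) fell, all by edgeR's adjusted p. Of these age calls, that of Atp10a was lost with 5 libraries left out in turn. Bsg, which encodes the barrier glycoprotein basigin, rose in WT/WT mice by 0.15 (adjusted p = 0.0485 by edgeR), and its log2 fold change was −0.02 with the GC and length trends removed. Among near copies of the 10 genes, the neuronal glucose carrier Slc2a3 fell with age in WT/WT mice (by 0.19) and in 304Q/304Q mice (by 0.27), the first of which was lost in 3 of 9 other fits.

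The other markers of endothelial cells moved little. Of 27 tested, 12 had higher and 15 lower values at 12 months in 304Q/304Q mice, with a median log2 fold change of −0.05. The adjusted p was passed by 3 of the 27, where 12.5% of all genes passed. They were Ly6a (−0.47), Ly6c1 (−0.27) and Clec14a (0.61), a receptor of vessel growth. The call of Ly6c1 was lost in 4 of 9 other fits and that of Clec14a in 4 of 8. With libraries left out in turn, Ly6c1 lost it with 14 of 20 and Clec14a with 7. With age in WT/WT mice, Eng, a co-receptor for TGF-beta ligands, rose by 0.48 and Ly6a by 0.53, and Itm2a fell by 0.34 (lost in 1 of 9 other fits). In 304Q/304Q mice, Itm2a fell by 0.33 and S1pr1, the receptor for sphingosine-1-phosphate, by 0.26. Of 14 tested junction genes, Cgnl1, a cingulin relative at cell junctions, fell at 12 months (−0.46, adjusted p = 0.000171 by edgeR, no overlap) and Afdn rose (0.22, adjusted p = 0.0204 by edgeR). Cgnl1 also fell with age in 304Q/304Q mice (−0.46), while in WT/WT mice Afdn fell (−0.25). Jam2 (−0.19) passed the adjusted p in WT/WT mice as well, a call lost in 6 of 9 other fits and with 7 libraries left out.

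**Figure D5:**
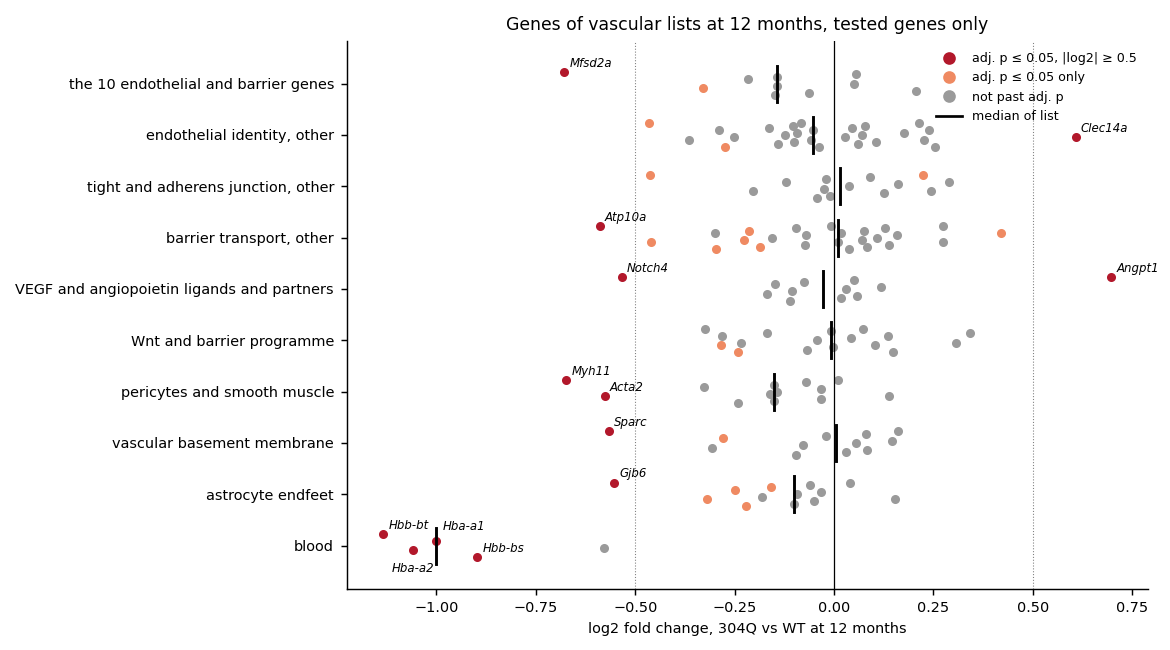
Log2 fold changes of the genotype at 12 months (304Q/304Q over WT/WT) for the tested genes of each list (1 point per gene, coloured by call, black line for the median, vertical scatter without meaning). Mfsd2a (−0.68) lies at the left of the 10 genes, whose median is −0.14, and the blood genes have the lowest median of the lists (−1.002).

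Around the endothelium, Acta2 (−0.58) and Myh11 (−0.67), the contractile proteins of smooth muscle cells, were DEGs at 12 months among 13 tested genes of mural cells, of which 11 had lower values and 2 higher ones. The pericyte genes Pdgfrb (−0.03), Rgs5 (0.14) and Vtn (−0.15) did not pass. In the basement membrane, Sparc fell by 0.57 (adjusted p = 6.73e-09 by edgeR, no overlap) and Sparcl1 by 0.28, both of which are also made by astrocytes, and 6 of 12 tested genes had higher and 6 lower values. With age the collagen genes Col4a1 (−0.60) and Col4a2 (−0.48), Lamc1 (−0.28) and Nid1 (−0.81) fell in WT/WT mice, and Col4a2 (−0.38) and Nid1 (−0.59) in 304Q/304Q mice. The call of Lamc1 was lost in 5 of 9 other fits and with 6 libraries left out, and that of Col4a2 in 304Q/304Q mice in 1 fit and with 8 libraries left out. Of 5 tested genes of endothelial activation and leakage, Ackr1, a chemokine receptor that is also known in Purkinje cells (−0.66), and Cdkn1a (−0.88) were lower at 12 months, and Plvap, the protein of fenestrae, rose with age in WT/WT mice (0.50).

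Beside the 10 genes, 33 of 161 tested genes on the lists of vessels, glia and blood passed the adjusted p at 12 months (20.5%, where 12.5% of all genes did), of which 14 did so in every other fit and with any library left out, and 12 without the libraries with choroid plexus RNA. With age in WT/WT mice 25 passed (15.5%, beside 11.5% of all genes), 12 of them in every other fit and with any library left out, and with age in 304Q/304Q mice 22 did (13.7%, beside 7.26%), 17 of them throughout. At 12 months, the count of any single list stands beside the same 12.5% of all genes for the adjusted p, and beside 3.09% for DEGs. The lists were chosen with these results known, so the shares are a description.

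Astrocyte endfeet cover the vessels. Of 13 tested genes, 5 were lower in 304Q/304Q mice at 12 months by the adjusted p and none higher, where 12.5% of all genes passed in either direction. Among the 5 were Gjb6 (−0.55), Hepacam (−0.25), Kcnj10 (−0.22) and Gpr37l1 (−0.16). The call of Gpr37l1 was lost in 4 of 9 other fits and with 9 libraries left out, and its log2 fold change was −0.05 with the GC and length trends removed (adjusted p = 0.492 by edgeR). Aqp4, the water channel of the endfeet, had a log2 fold change of 0.15 (adjusted p = 0.346 by edgeR). Aqp4 fell with age in WT/WT mice (−0.41). In 304Q/304Q mice, Kcnj10 (−0.29), Slc1a3 (−0.23), Mlc1 (−0.21, lost with 5 libraries left out) and Hepacam (−0.26) fell with age. Of 6 tested genes of macrophages and microglia, C1qa was higher at 12 months (0.33, adjusted p = 0.0443 by edgeR, lost in 5 of 9 other fits and with 12 libraries left out). It rose with age in both genotypes (0.75 and 1.29), as did Csf1r (0.49 and 0.35, the latter lost in 2 of 9 other fits and with 8 libraries left out), by edgeR's adjusted p. Of 10 tested genes of fibroblasts and meninges, Ptgds was lower at 12 months (−0.37, adjusted p = 0.0362 by edgeR, lost in 2 of 9 other fits and with 7 libraries left out) and Col3a1 fell with age in WT/WT mice (−0.76).

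Blood genes were lower in 304Q/304Q mice of 12 months, as Mfsd2a and Slc2a1 were. At this age, Hba-a1 had 280.7, 611.5, 577.3, 467.4 and 502.9 normalized counts in the WT/WT mice and 264.5, 224.9, 245.1, 213.7 and 270.0 in the 304Q/304Q mice (log2 fold change −1.002, adjusted p = 0.00244 by edgeR), and Hba-a2 (−1.06), Hbb-bs (−0.90) and Hbb-bt (−1.13) were lower as well. The 304Q/304Q mice all lay below the WT/WT mice for Hba-a1. With age, Hba-a1 rose in WT/WT mice (0.74, adjusted p = 0.025 by edgeR), where Mfsd2a had −0.19, and had −0.44 with no call in 304Q/304Q mice (adjusted p = 0.269 by edgeR), where Mfsd2a fell. The rise of Hba-a1 was lost in 4 of 9 other fits and with 5 libraries left out. The globin genes share reads with near-identical copies. The calls of Mfsd2a were kept with 304Q/304Q replicate 5 of 12 months, which held muscle RNA, left out. The part of blood, of choroid plexus and of muscle RNA in the differences of the 10 genes was not tested.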

How the data were processed

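The authors aligned paired reads of polyA-selected cerebellar RNA to GRCm38 with STAR (version 2.4.5b in the submitters' notes, another in the methods) and counted them per Ensembl gene with Rsubread, and the deposited values are whole-number counts without normalization. A column's name identified its mouse. From these counts, edgeR 4.0.16 (R 4.3.3) was fitted with TMM scaling and a term for each of the 4 groups. Genes whose counts averaged 50 or more entered the fit and held 99.3% of all reads counted. The study itself used DESeq2 with sva. RPKM divides by the exon length in GENCODE M21. The fit was tested on simulated data. Between mice, the common coefficient of biological variation was 0.113, and replicates differed by more than counting noise (chi-square over its degrees of freedom at least 4.43).

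The 10 genes, the gene lists and the tests were chosen with earlier results of these data known. Genes were named by rule: the 10 genes, listed genes past the adjusted p (up to 10 a list by smallest p), and ligands, partners, mural and near-copy genes whatever their values. Some listed genes past the adjusted p are counted but not reported by name here. Eomes, Tsc22d3 and the other genes most like a single gene were chosen for their values.

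As alternatives, DESeq2 1.42.0 was run alone and with 3 surrogate variables (sva 3.50.0), and edgeR with these variables, with DESeq2 size factors, other filters, only the groups compared, a replicate block, GC and length trends removed, no fold threshold, and each library left out. Leaving out libraries with choroid plexus RNA, thinning the deepest library and the checks of pair correlations, with and without mice that stand apart, were added after the data were seen.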

Additional observations from a re-analysis of the deposited data

Results flagged for a closer look

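In 3 of the 40 combinations of gene and group, 1 mouse lay far from the other 4 by Dixon's test, which chance does for about 1 in 20. Cdh5 had 365.9 normalized counts in 304Q/304Q replicate 2 of 2 months, Slco1a4 had 642.6 in 304Q/304Q replicate 5 of 2 months, and Abcb1a had 559.9 in 304Q/304Q replicate 1 of 12 months, each the highest of its group.

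For 6 listed genes outside the 10, the effect of the genotype differed between 12 and 2 months by the interaction term of edgeR, with p adjusted over all genes. The lists of vessels, glia and blood held 161 tested genes, and 1.95% of all genes tested passed. The difference was −0.46 for Sparc (adjusted p = 0.000293), −0.67 for Ackr1 (adjusted p = 0.00192) and −0.28 for Sparcl1 (adjusted p = 0.00399 by edgeR). For Hepacam it was −0.31 (adjusted p = 0.0226), for Hba-a1 −1.17 (adjusted p = 0.0397) and for Hba-a2 −1.42 (adjusted p = 0.0333 by edgeR). Sparc, Ackr1 and Sparcl1 kept the call in the 8 other fits and with each library left out. Hba-a1 lost it with 15 of the 20 libraries left out in turn, Hba-a2 with 10 and Hepacam with 3, and each of them in 2 other fits. Without the libraries with choroid plexus RNA, 2 of the 6 kept it, and Sparcl1 did not (adjusted p = 0.0805 by edgeR).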

How the results depend on the processing

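At 12 months, 1 of the 10 genes, Mfsd2a, was called in every planned fit with the fold threshold and with any library left out. The count was 2 with no threshold on the fold change (Slc2a1 added) and 0 without the 6 libraries with choroid plexus RNA, a fit with fewer samples. For age in WT/WT mice the count was 1 (Kdr) with surrogate variables in DESeq2 and in edgeR, and ran from 0 to 1 with a library left out, being 1 without WT/WT replicate 1 of 2 months. By the adjusted p alone the count reached 2 over the other fits, with Slc2a1 added in 1 of them. The cause was not tested. For age in 304Q/304Q mice it was 2 with no fold threshold (Slco1a4 added), and by the adjusted p alone 3 with surrogate variables (Kdr added) and 1 with no filter on low counts or only the groups compared. No setting called any of the 10 genes at 2 months or in the interaction.

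Deviations of same-numbered mice of different groups correlated between −0.32 and 0.55 and over 0.1 in 6 of 30 pairs. The highest value was that of the WT/WT replicates 1 of both ages. Differently numbered mice correlated too. WT/WT replicate 1 of 12 months had r of 0.33 and 0.29 with WT/WT replicates 2 and 3 of 2 months. With WT/WT replicates 4 and 5 of 2 months it had −0.55 and −0.50. Whether mice of different groups shared a batch was not tested. With the replicate block, Mfsd2a at 12 months had an adjusted p of 0.00420 and Slc2a1 of 0.0323 by edgeR, and no call of the 10 genes changed. Of the 10 names most like the 10 genes, 5 were shared with Spearman's rho and 0 with group means kept. Over all single genes and settings, 3871 values kept their side of the adjusted p threshold, 375 lost it and 6 gained it, and 1 value with a call turned in sign: Bsg with age in WT/WT mice, −0.0175 with GC and length trends removed. Among the 10 genes, 61 of 1416 values with no call at first also turned in sign, none of them called after it and each from a log2 fold change of at most 0.125 in size, such as Cldn5 with age in WT/WT mice (0.087, and −0.205 with surrogate variables in DESeq2). The 95% confidence interval of Cldn5 at 12 months ran from −0.32 to 0.43 on the log2 scale, so changes within it, lower or higher, were not excluded.

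Among all genes tested, the DEGs of age in WT/WT mice numbered 314, and 194 to 202 with surrogate variables or with GC and length trends removed, 206 without WT/WT replicate 1 of 2 months and 593 without WT/WT replicate 1 of 12 months. Those of the interaction numbered 114, and 173 in the DESeq2 Wald test, 264 without WT/WT replicate 1 and 75 without replicate 3 of 12 months, 178 without 304Q/304Q replicate 5 of 2 months and 68 without the libraries with choroid plexus RNA. At 2 months the count was 1, and up to 16 in DESeq2 with surrogate variables. At 12 months and for age in 304Q/304Q mice it stayed within 1.5 times the 375 and 277 DEGs.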
